A study of Equus caballus with 10 samples.

Results

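The genes described here encode 10 matricellular and adhesive glycoproteins of the tendon matrix: FN1, TNC, TNXB, POSTN, SPARC, SPP1, TGFBI, CTHRC1, CILP and ABI3BP. They were chosen by symbol, and all 10 were found among the 29196 genes of the deposited table. Tenocytes from the superficial digital flexor tendon of 5 horses were embedded in gels of bovine type 1 collagen and kept there for 14 days. In the first group, PF-06650833, which inhibits the kinase IRAK-4 downstream of the interleukin-1 receptor, was added daily at 100 nM. In the second group, cells of the same 5 donors received the same inhibitor and also IL-1β at 17 ng/ml every 3 to 4 days. Both groups therefore carried the inhibitor, and the comparison gives the difference made by IL-1β in its presence. The cells were cultured for several passages before the gels were made, whole gels were taken for RNA, and each group has 1 RNA library per donor. Donors are numbered 1 to 5.

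Matricellular proteins are secreted into the matrix and act on cells more than they bear load: they bind integrins, syndecans, collagen and growth factors, and tune how strongly a cell grips its surroundings. Fibronectin, the product of FN1, is the main adhesive glycoprotein of the group, assembled by cells into fibrils on which other matrix proteins are laid down. Tendon cells make many of these proteins during development, under load and in repair.

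Values are the deposited expression levels on a log2 scale, on which a gene with 0 reads has the value 3.43. Levels can be compared between libraries for 1 gene, but not between genes, since they are not per length of transcript. Genes were tested with limma, and a gene was called at an adjusted p below 0.05 (Benjamini-Hochberg over 17992 tested genes) and a difference of 1 log2 unit or more. All 10 genes passed the filter on low values and were tested. FN1 and TNC were called, both lower in the presence of IL-1β, so 2 of 10 were called against 6.68% of all tested genes in either direction and 3.57% in the lower direction. With the donor as a block, which compares the libraries within each donor, TGFBI and ABI3BP were called as well, and 4 of 10 were lower against 4.25% of all tested genes (8.26% in either direction). No gene of the 10 was called higher in either fit (0 genes, against 3.11% of tested genes without and 4.01% with the block), and the one gene with a positive fold change, POSTN, had an unadjusted p of 0.227 from limma. The log2 fold change was negative for 9 of the 10 genes and the median of the 10 was -0.63, beside -0.01 over all tested genes. Among the 9 are SPP1 (-0.19) and CTHRC1 (-0.05), whose sign turned in some fits with a library or donor left out, and CTHRC1 was higher in 4 donors. TNXB (-0.24) and CILP (-0.51) were not called in either fit. Of the 10, 5 were lower in all 5 donors, which 16.8% of tested genes were. These are bulk samples, in which fewer cells of a kind and less RNA per cell cannot be told apart.

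**Figure D1:**
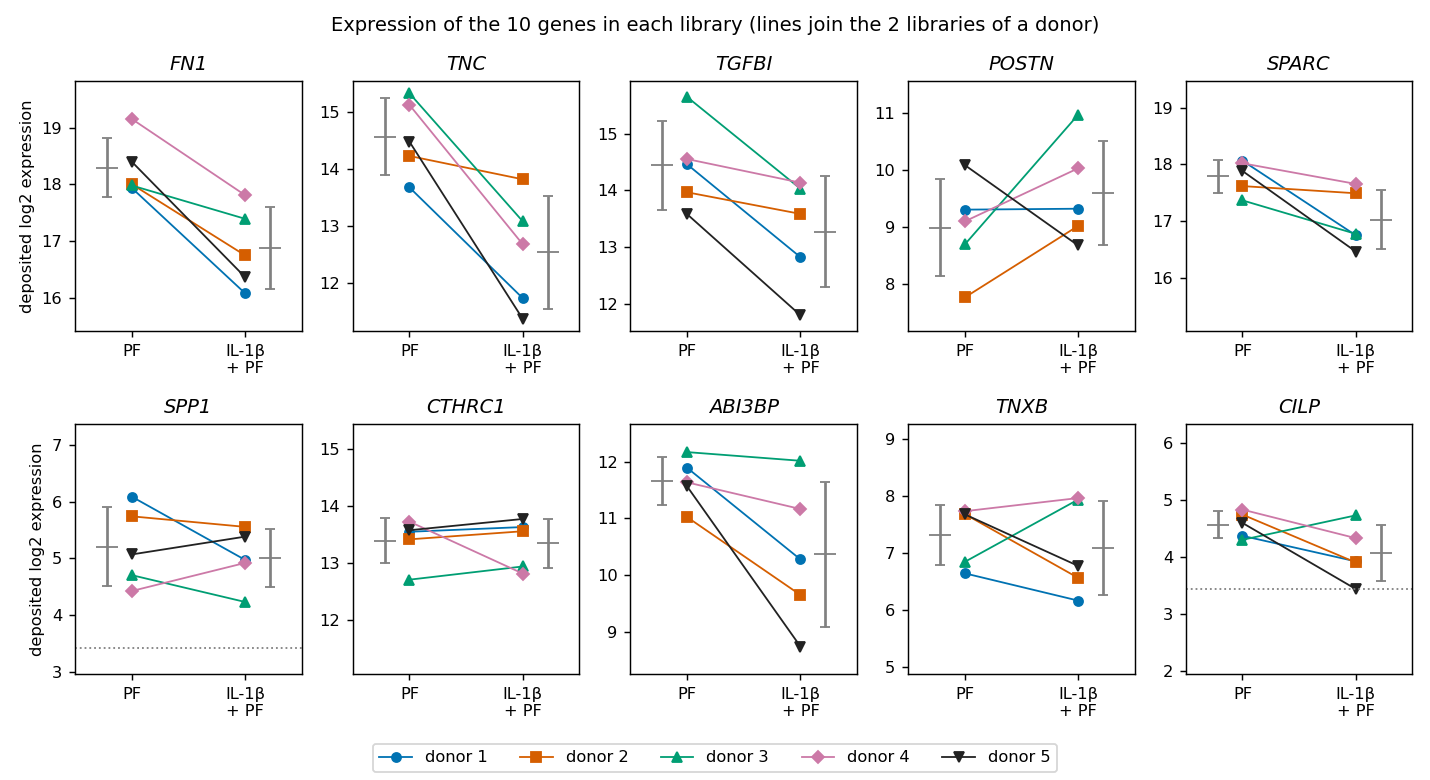
Deposited log2 expression of each gene (vertical axis, of equal length in log2 units in every panel) with PF-06650833 alone (PF) and with IL-1β plus PF-06650833 (IL-1β + PF). Coloured points joined by lines are the 2 libraries of a donor, grey bars are the mean and SD of 5 libraries, and the dotted line is the value of 0 reads. All lines of FN1, TNC, TGFBI, SPARC and ABI3BP slope down, and those of POSTN, SPP1, CTHRC1, TNXB and CILP go both ways.

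FN1 was lower in every donor when IL-1β was present. Its log2 expression with PF-06650833 alone was 17.94, 18.00, 17.98, 19.15 and 18.40 in donors 1 to 5. With both agents present it was 16.09, 16.75, 17.40, 17.81 and 16.37 in the same order. The highest library with IL-1β, that of donor 4, lay just under the lowest without it, so the groups did not overlap, which 12.7% of all tested genes showed in either direction and 6.41% in the lower one. FN1 was the only gene of the 10 whose groups were apart. FN1 averaged 18.30 ± 0.51 (SD, n = 5) without IL-1β and 16.88 ± 0.71 (SD, n = 5) with it. It was thus 2.66-fold lower, with a log2 fold change of -1.41 ± 0.40 (SE, limma adjusted p = 0.0369). Within donors the difference ran from -0.59 in donor 3 to -2.03 in donor 5. With the donor as a block the adjusted p was 0.00788.

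The call of FN1 without a donor term was close to the threshold. It was lost when the PF-06650833 alone library of donor 1 (adjusted p = 0.056 from limma), 2 (0.0551), 4 (0.0777) or 5 (0.0777) was left out. It was also lost without the IL-1β plus PF-06650833 library of donor 1 (0.104), 2 (0.0888) or 5 (0.0887), and without both libraries of donor 1 (0.145), 2 (0.123) or 5 (0.158). With the donor as a block it was lost in 1 of 5 such fits, without donor 1 (adjusted p = 0.0554). The fold change stayed between -1.65 and -1.20 in all these fits without a donor term. FN1 transcripts differ by splicing, and the deposited values sum them to the gene, so forms with and without the extra domains cannot be told apart.

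TNC had the largest decrease of the 10 genes. It encodes tenascin-C, a large protein with several arms that weakens the grip of cells on fibronectin and is made in tendon under load and after injury. On the log2 scale it stood at 13.68, 14.23, 15.33, 15.13 and 14.48 with PF-06650833 alone in donors 1 to 5, and 11.73, 13.82, 13.08, 12.68 and 11.37 with IL-1β plus PF-06650833. The groups overlapped through 1 library of each, since donor 2 with IL-1β stayed above donor 1 without it. TNC averaged 14.57 ± 0.67 (SD, n = 5) without IL-1β and 12.53 ± 1.00 (SD, n = 5) with it, which is 4.10-fold lower. The difference was -2.04 ± 0.46 on the log2 scale (SE, limma adjusted p = 0.0135), and 0.895% of tested genes had a more negative one. The decrease was small in donor 2 (-0.41) and lay between -1.95 and -3.12 in the other four. TNC was called with the donor as a block (adjusted p = 0.00516). Without both libraries of donor 5 and without a donor term it was not called (adjusted p = 0.0569 from limma, log2 fold change -1.77), and it was called in 14 of the 15 fits with 1 library or donor left out.

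TNXB encodes tenascin-X, the family member that associates with collagen fibrils and whose loss causes a form of Ehlers-Danlos syndrome. With PF-06650833 alone its log2 expression was 6.64, 7.68, 6.84, 7.73 and 7.68 in donors 1 to 5. With both agents present it was 6.16, 6.56, 7.94, 7.96 and 6.77. The groups overlapped over most of their range, and donors 3 and 4 were higher while donors 1, 2 and 5 were lower. For TNXB the log2 fold change was -0.24 with a 95% interval from -1.10 to 0.63 (adjusted p = 0.746 from limma), so a decrease by 1 log2 unit is just inside the interval. TNC passed the test and TNXB did not, and the difference between the 2 genes was not itself tested.

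TGFBI and POSTN encode the 2 fasciclin-domain proteins among these genes, TGFBI (βig-h3) and periostin, both of which bind integrins and collagen and are known to be induced by TGF-β. TGFBI was lower in each donor in the presence of IL-1β. It stood at 14.46, 13.97, 15.64, 14.55 and 13.58 with PF-06650833 alone in donors 1 to 5, and 12.83, 13.59, 14.03, 14.14 and 11.80 with IL-1β plus PF-06650833. Donor 3 was high and donor 5 low within PF-06650833 alone, and the ranges of the groups overlapped. The difference of the means, -1.16 ± 0.48 (SE) on the log2 scale, did not pass without a donor term (limma adjusted p = 0.128). With the donor as a block its standard error was 0.24 and its adjusted p 0.0129, and TGFBI was called. Of the variance of its 10 values, 54.3% lay between donors and 35.4% between the groups, beside medians of 45.9% and 19.1% over all tested genes. The decrease was 1.61 to 1.78 log2 units in donors 1, 3 and 5, and about 0.4 in donors 2 (-0.38) and 4 (-0.42). The blocked call was lost without donor 1 (adjusted p = 0.0595 from limma) and held when each other donor was left out.

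POSTN went in different directions in different donors. With PF-06650833 alone its log2 expression was 9.31, 7.76, 8.69, 9.10 and 10.09 in donors 1 to 5. With both agents present it was 9.32, 9.02, 10.97, 10.03 and 8.68. Donor 5 had the highest value of its group without IL-1β and the lowest with it, a difference of -1.41, whereas donor 3 differed by 2.28 in the other direction. Donors 2 and 4 were higher by 1.26 and 0.93, and donor 1 was almost level (0.02). The SD of these differences was 1.39, larger than in 98.6% of tested genes. The log2 fold change of 0.62 had a 95% interval from -0.44 to 1.67 and POSTN was not called (adjusted p = 0.438 from limma, and 0.374 with the donor as a block). An increase of 1 log2 unit and a small decrease are both inside that interval.

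**Figure D2:**
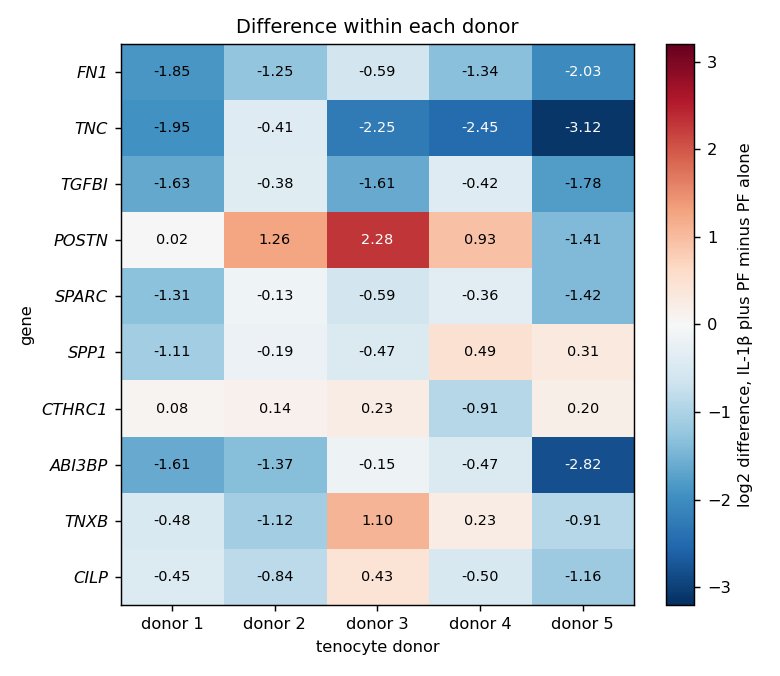
Difference in log2 expression between IL-1β plus PF-06650833 and PF-06650833 alone within each donor (columns) for each gene (rows), with blue for lower and red for higher with IL-1β. TNC and ABI3BP have the darkest blue cells, both in donor 5, and POSTN holds the darkest red cell, in donor 3.

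SPARC encodes osteonectin, which binds collagen and calcium and is needed for normal collagen fibrils. SPARC stood at 18.07, 17.62, 17.37, 18.02 and 17.88 with PF-06650833 alone in donors 1 to 5, and 16.75, 17.49, 16.78, 17.66 and 16.47 with IL-1β plus PF-06650833. It was lower in all 5 donors, but by 0.13 in donor 2 and by 1.42 in donor 5, and the ranges of the groups overlapped. The groups differed by -0.76 log2 units, with a 95% interval from -1.44 to -0.08, and SPARC was not called (adjusted p = 0.126 from limma, and 0.0679 with the donor as a block). Its SD over libraries was 0.29 with PF-06650833 alone and 0.52 with IL-1β.

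CTHRC1 encodes a secreted protein with a short collagen triple helix that is known from injured arteries and from activated fibroblasts. CTHRC1 stood at 13.55, 13.42, 12.71, 13.73 and 13.58 with PF-06650833 alone in donors 1 to 5. In the presence of IL-1β it stood at 13.63, 13.56, 12.94, 12.81 and 13.77. In 4 donors CTHRC1 was slightly higher with IL-1β, by 0.08 to 0.23, and in donor 4 it was lower by 0.91. Over all donors the log2 fold change was -0.05 with a 95% interval from -0.57 to 0.47 (adjusted p = 0.913 from limma), the narrowest interval of the 10 genes, and its sign was positive when donor 4 was left out (0.16). A change of CTHRC1 by 1 log2 unit in either direction is outside this interval. Of its variance, 66.1% lay between donors, beside a median of 45.9% over all tested genes.

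SPP1 encodes osteopontin, a phosphorylated protein of bone and of inflamed tissue that binds integrins and CD44. It had few reads. Values of SPP1 were 6.09, 5.74, 4.71, 4.43 and 5.07 with PF-06650833 alone in donors 1 to 5, and 4.98, 5.56, 4.24, 4.92 and 5.38 with IL-1β plus PF-06650833. These values correspond to between 5.34 and 48.1 normalized counts without IL-1β and between 3.42 and 27.9 with it. Donors 1, 2 and 3 were lower with IL-1β and donors 4 and 5 were higher. SPP1 differed by -0.19 log2 units between the groups (95% interval -0.97 to 0.59, adjusted p = 0.771 from limma), and 70.2% of the variance of SPP1 lay between donors, beside a median of 45.9% over all tested genes. Without the PF-06650833 alone library of donor 1 its sign turned (0.028), so no direction is given for SPP1.

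ABI3BP encodes a glycoprotein that binds other matrix proteins. Per the study, earlier data of its authors placed it among candidate genes for the contraction of collagen gels. The study does not name it among the genes that its own comparison shared with those data. ABI3BP stood at 11.89, 11.02, 12.17, 11.63 and 11.56 with PF-06650833 alone in donors 1 to 5. With both agents present it was 10.28, 9.65, 12.01, 11.16 and 8.75. All 5 donors were lower, but donor 3 by 0.15 and donor 4 by 0.47, while donor 5 was lower by 2.82, and the groups overlapped through donors 3 and 4. It averaged 11.65 ± 0.43 (SD, n = 5) without IL-1β and 10.37 ± 1.27 (SD, n = 5) with it, where the donors were more spread out. A log2 difference of -1.28 ± 0.51 (SE) did not pass without a donor term (limma adjusted p = 0.119), and with the donor as a block ABI3BP was called (SE 0.34, adjusted p = 0.0336). Without a donor term it was called when the IL-1β plus PF-06650833 library of donor 3 (-1.69, adjusted p = 0.0216) or both libraries of donor 3 (-1.57, adjusted p = 0.0442) were left out. The blocked call was lost without donor 1 (adjusted p = 0.115), 2 (0.0976) or 5 (0.0516, log2 fold change -0.90).

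CILP encodes cartilage intermediate layer protein, a matrix protein of cartilage and tendon that binds TGF-β1. It was close to the limit of detection. CILP stood at 4.37, 4.74, 4.30, 4.83 and 4.60 with PF-06650833 alone in donors 1 to 5, and 3.92, 3.90, 4.73, 4.33 and 3.43 with IL-1β plus PF-06650833. That is between 4.01 and 10.95 normalized counts without IL-1β and at most 9.32 with it. The library of donor 5 with IL-1β had 0 reads of CILP, which allows up to 3 reads or 3.50 normalized counts, and this floor covers counting error only. CILP was lower with IL-1β in 4 donors and higher in donor 3. Between the groups it differed by -0.51 log2 units (95% interval -1.03 to 0.02, adjusted p = 0.183 from limma), and the scale understates changes of genes with so few reads: on log2(normalized count + 1) it was -1.37 (adjusted p = 0.161). CILP was not called on either scale.

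**Figure D3:**
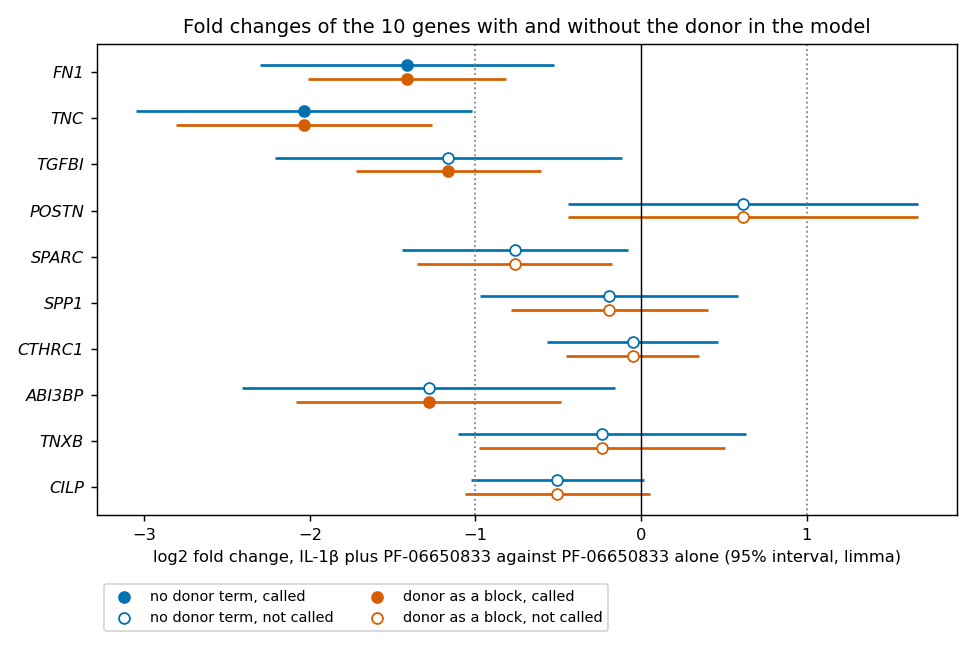
Log2 fold change (horizontal axis) of each gene with its 95% interval from limma, without a donor term (blue) and with the donor as a block (orange); filled points were called and open points were not. Dotted lines mark the minimum fold change. The block leaves the fold changes in place and narrows the intervals of 8 genes, all but POSTN and CILP, and FN1, TNC, TGFBI and ABI3BP are the 4 genes called with it.

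The donors differed in how far these genes moved. In donor 5, 8 of the 10 genes were lower and 7 were lower by at least 1 log2 unit, with a median difference of -1.42. In donor 1, 8 were lower and 6 by at least 1 unit (median -1.21). In donor 3, 6 were lower and 2 of them by at least 1 unit, 2 others were higher by at least 1 unit, and the median was -0.31. The medians of donors 2 and 4 were -0.40 and -0.44. The same was partly seen over all 17992 tested genes: 3012 differed by at least 1 log2 unit in donor 5, the most of any donor, and 1455 in donor 3, the fewest, while donor 1 had 2094 and donor 2 had 2705. All 10 genes had a larger SD of the differences within donors than the median tested gene (0.34), from 0.49 for CTHRC1 to 1.39 for POSTN. The SD over libraries was larger with IL-1β plus PF-06650833 than with PF-06650833 alone in 9 of the 10 genes, the exception being SPP1, and in 57.2% of all tested genes.

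FN1 and SPARC make up most of the reads of these genes. Of the normalized counts of a library, FN1 took 0.687% to 1.503% without IL-1β and 0.192% to 0.606% in its presence. SPARC took 0.485% to 0.750% without IL-1β and 0.249% to 0.544% with it, ranges that overlap. The 10 genes together took 1.38% to 2.39% of a library without IL-1β, against 0.540% to 1.243% in its presence, so every library without IL-1β lay above every library with it. Since the sum is mostly FN1 and SPARC, it says little about the other 8 genes.

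**Figure D4:**
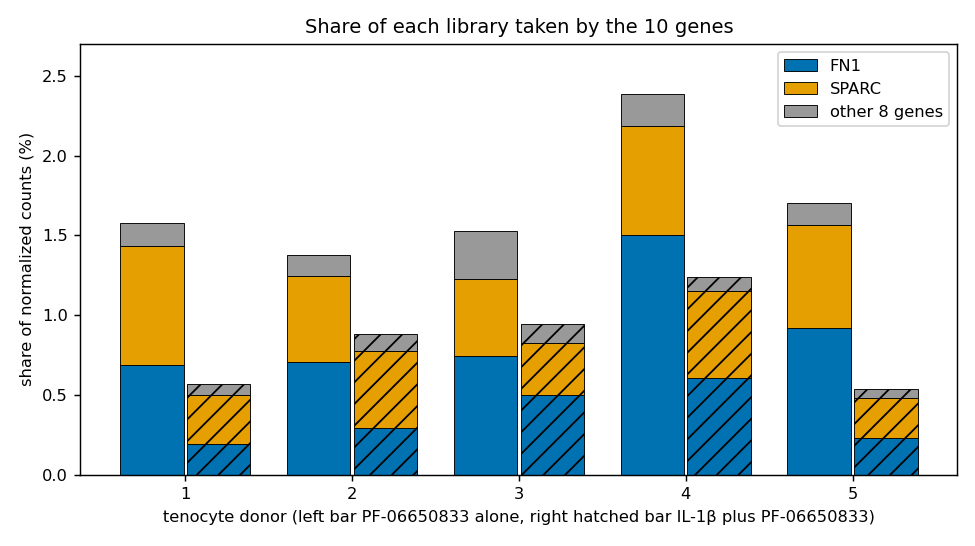
Share of the normalized counts of each library (vertical axis, percent) taken by FN1 (blue), SPARC (orange) and the other 8 genes (grey), for each donor with PF-06650833 alone (left) and with IL-1β plus PF-06650833 (right, hatched). Within a donor the right bar is the shorter in all 5, and the shares are counts and not per length of transcript.

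Other secreted glycoproteins of these kinds were mostly lower when they changed. The list held thrombospondins, fibulins, matrilins, CCN proteins, relatives of SPARC and of the tenascins, and others, written with earlier results of these data known. Of the 47 that could be tested, 18 were called, 16 lower and 2 higher with IL-1β, where 3.57% of all tested genes were lower and 3.11% higher, and with the donor as a block 19 were called, 17 lower and 2 higher. Their median log2 fold change was -0.60, nearly that of the 10 genes. The decreases with the smallest adjusted p were those of LGALS3 (galectin-3, a sugar-binding protein, log2 fold change -1.64), FBLN5 (fibulin-5, needed for elastic fibres, -2.91), CILP2 (-4.31) and THBS2 (thrombospondin-2, which regulates collagen fibril assembly, -3.53). CILP2, the relative of CILP, averaged 8.27 ± 1.73 (SD, n = 5) without IL-1β and 3.96 ± 0.57 (SD, n = 5) with it, close to the value of 0 reads. The 2 genes that rose were EDIL3 (2.05), whose product binds integrins, and ECM1 (1.12). Among close relatives of the 10 genes, chosen after their values were seen, TNN (tenascin-N, also called tenascin-W, log2 fold change 0.71, adjusted p = 0.193 from limma) and the SPARC relatives SMOC1 (0.96, adjusted p = 0.0258, under the minimum fold change) and SMOC2 (-0.18, adjusted p = 0.837) were not called.

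Receptors for these proteins went both ways. Of 21 tested integrin subunits, syndecans and other receptors, 6 were called, 3 higher and 3 lower, where 3.11% of all tested genes were higher and 3.57% lower. With the donor as a block 7 were called, 3 higher and 4 lower, where 8.26% of all tested genes were called, and the median log2 fold change was -0.10. ITGB8 rose (log2 fold change 3.08), as did ITGB6 (1.74), and both of these integrin β subunits pair with αV and are known for activating TGF-β. ITGB6 had values near that of 0 reads without IL-1β (mean 3.76). ITGA4 (1.11), a subunit of receptors for fibronectin and osteopontin, rose as well. ITGA9, whose integrin binds tenascin-C and osteopontin, fell by 1.46, and the syndecans SDC3 (-1.87) and SDC2 (-1.61) fell too. The subunits of the main fibronectin receptor, ITGA5 (0.13, standard error 0.15, adjusted p = 0.628 from limma) and ITGB1 (-0.10, standard error 0.22, adjusted p = 0.813), chosen after their values were seen, were not called. CD44, which binds osteopontin, was lower in all 5 donors (-0.83, adjusted p = 0.0103 from limma) without reaching the minimum fold change. The same held for ITGAV, the αV partner of ITGB6 and ITGB8 (-0.56, adjusted p = 0.0322), and for ITGB5 (-0.67, adjusted p = 0.0423). SDC1 was higher in all 5 donors (0.54, adjusted p = 0.0450), also under the minimum. These genes were named after their values were seen.

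Of 15 tested genes of TGF-β signalling, a pathway known to act on FN1, TNC, POSTN, TGFBI and CTHRC1, only LTBP2 was called, in both fits. That count of 1 in 15 is near the 6.68% of all tested genes. It encodes a latent TGF-β binding protein of microfibrils and was lower (log2 fold change -2.26, adjusted p = 0.0131 from limma). The median of the 15 was -0.14. The ligand TGFB3 (-0.96, adjusted p = 0.164) and the receptor TGFBR1 (-0.64, adjusted p = 0.0179), named after their values were seen, were lower in all 5 donors without being called.

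**Figure D5:**
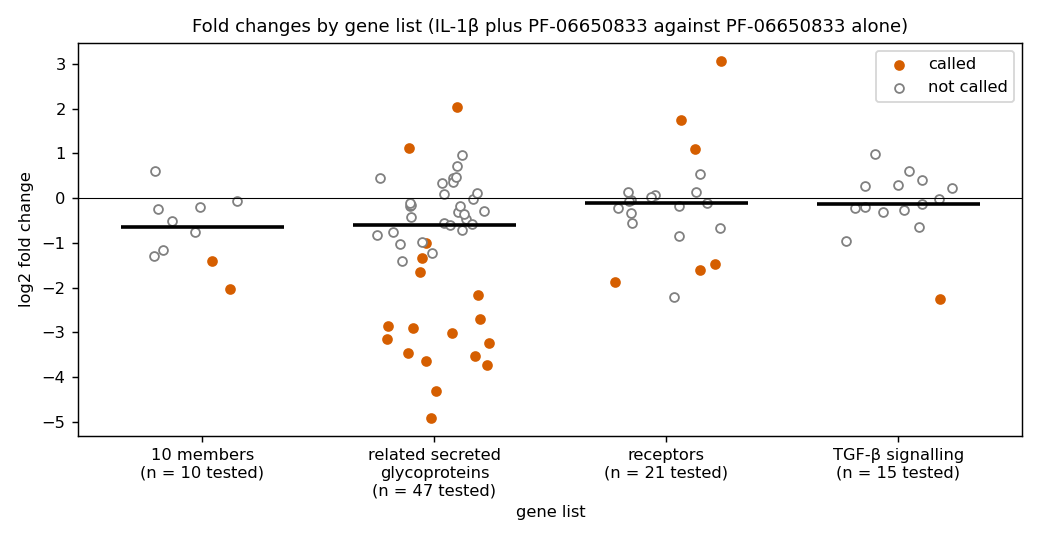
Log2 fold change (vertical axis) of every tested gene of the 4 lists (horizontal axis), filled where called without a donor term, with a black line at the median of each list. Called genes of the related glycoproteins lie mostly below -1, while those of the receptors lie on both sides of 0.

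The libraries held an estimated 26550358 to 35884448 reads on genes with PF-06650833 alone and 26963764 to 33582823 when IL-1β was added. Of the 10 tenocyte markers in the table, TNMD was at 0 reads in all 10 libraries, and the 10 markers together took 2.82% to 4.45% of a library without IL-1β and 1.00% to 3.77% with it. SCX (log2 fold change -3.24), MKX (-2.85) and COL5A1 (-1.10) of this list were called lower, 3 of 9 tested, where 3.57% of all tested genes were. DCN (1.01, higher in all 5 donors) and LUM (0.33) went the other way without being called. The other tested tenocyte markers were lower without being called in the fit without a donor term. With the donor as a block COL1A1 (-1.38, adjusted p = 0.0147 from limma) and COL1A2 (-1.28, adjusted p = 0.0169) were called lower as well. That made 5 of 9 lower with the block, where 4.25% of all tested genes were. Of 8 leukocyte markers, AIF1 and CD3E were at 0 reads in every library, PTPRC had at most 3.09 normalized counts, and the list as a whole, mostly CD14, took at most 0.00475% of a library in either group. Of the 7 endothelial markers, 5 stayed under 10 normalized counts in every library. Markers of mural cells were counted in all libraries, from 0.0469% to 0.261% without IL-1β and from 0.0889% to 0.384% with it. Of the 6, 3 (CSPG4, DES and RGS5) were called lower, where 3.57% of all tested genes were. CNN1 (-0.43), MYH11 (-0.56) and ACTG2 (0.92, higher in 3 donors) were not called. ACTG2 had 2889 to 35710 normalized counts without IL-1β and 7882 to 128400 with it. The adipocyte list took at most 0.00045% of a library without IL-1β and between 0.000953% and 0.0064% with it. LEP was at 0 reads throughout, and ADIPOQ was called higher (log2 fold change 3.11), from 17.8 to 159 normalized counts without IL-1β and from 353 to 2320 with it. The chondrocyte list took 0.00231% to 0.00392% without IL-1β and 0.000679% to 0.00138% with it, with COL9A1 at 0 reads throughout, COL2A1 at no more than 5.17 normalized counts and SOX9 called lower (-1.49). The epithelial list took 0.00157% to 0.00409% without IL-1β and 0.000403% to 0.00125% with it, with EPCAM and KRT5 at 0 reads throughout and CDH1 called lower (-2.22). CLDN4 of this list went the other way, higher in all 5 donors (0.75), and was not called (adjusted p = 0.325 from limma, and 0.0147 with the donor as a block). The part of these markers in the values of the 10 genes was not tested. In a RefSeq table of another horse assembly, 5 of the 10 genes overlap another gene in position: TNXB, SPARC, CTHRC1, CILP and ABI3BP. Reads were assigned to transcripts, and whether transcripts of the overlapping genes share sequence was not examined. Whether the assignment used the strand is not given in the sources used here. Where sequence is shared, some of their reads may belong to the neighbour. For CTHRC1 this neighbour is SLC25A32, which stood at 9.46 in both groups. For CILP it is LOC111776189, which had a mean of 3.70 without IL-1β and was at 0 reads (3.43) in the libraries with it. The neighbours of TNXB, SPARC and ABI3BP were not found by symbol in the deposited table, so no values are given for them.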

How the data were processed

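RNA was sequenced from 10 libraries, 5 with PF-06650833 alone and 5 with IL-1β plus PF-06650833. Per the labels and the study's methods, reads were checked with FastQC 0.11.9 and assigned by Salmon 1.8, with GC-bias correction, to horse transcripts of EquCab3.0, then analysed in DESeq2 1.36. The values deposited by the authors are log2 expression, normalized between libraries. Their lowest value, shared by all libraries, is that of a variance-stabilizing transformation at 0 reads; the sources do not name it. They are not counts, so the test with DESeq2 was replaced.

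Genes with reads in 5 or more libraries were fitted with limma 3.58.1 in R 4.3.3, with a mean-variance trend and no donor term, as none is stated, and beside it with the donor as a block. Adjusted p-values are limma's (Benjamini-Hochberg). Libraries were paired by the donor in their labels, and same-donor libraries deviated together from their group means (correlations across genes of 0.367 to 0.506). Horses are the replicates. Normalized counts and depths come from inverting the transformation and from the spacing of low values, and are approximate. Between 66.4% and 85.9% of low values lay within 0.15 of a whole read, where evenly spread values would give 30% for a unit fixed in advance. The unit of each library was chosen to fit these same low values, so the excess is partly built in.

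The genes, lists and tests were chosen with earlier results of these data known. All 10 genes are named, and of each other list at most 4 called genes per direction by adjusted p, apart from those named after their values were seen. The fit was tested on simulated data. The alternatives were thresholds, filters, scales, scalings, the block, and leaving out libraries or donors. COL3A1 and FABP4 of the marker lists, and sequences and positions, were not analysed here.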

Additional observations from a re-analysis of the deposited data

How the results depend on the processing

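Of the 10 genes, 2 were called without a donor term, 4 with the replicate block, 4 with the replicate block under either other setting tried with it (no minimum fold change, log2(normalized count + 1)), and 0 at an adjusted p below 0.01. Leaving out a library or a donor gave 0 to 3 of them without the block and 1 to 4 with it. Among all genes, 1202 were called, against 719 at an adjusted p below 0.01, 2782 with no minimum fold change, 3996 with the replicate block and any fold change, and 1809 with the replicate block on log2(normalized count + 1), and 762 to 1422 when a library or a donor was left out, with 790 without donor 2 and 777 without donor 5. The replicate block alone gave 1486. The study reports more differentially expressed genes than either for this comparison, with DESeq2 and the same thresholds. Its own count of 1202 belongs to another comparison, of IL-1β plus PF-06650833 with IL-1β alone. With a library or donor left out, called related glycoproteins (18) ranged from 10, without donor 1, to 20. Receptors (6) numbered 2 at an adjusted p below 0.01, 10 with no minimum fold change and 11 with the block as well, and ranged from 2 to 6 (3 without donor 1, 2 without donor 2 and 2 without donor 5). TGF-β signalling (1) gave 0, 2 and 3 in these settings, ranged from 0 (without donor 2 or 5) to 1, and with the block from 1 to 3. The cause was not tested.

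The sign of SPP1 turned without the PF-06650833 alone library of donor 1 (0.028), the IL-1β plus PF-06650833 library of donor 3 (0.0025) and both libraries of donor 1 (0.038, with and without the block), within a range from -0.39 to 0.038 over all fits with a library left out. That of CTHRC1 turned without donor 4 with PF-06650833 alone (0.031), donor 3 (0.050) or donor 4 (0.081) with IL-1β, and both libraries of donor 4 (0.16, with and without the block), within a range from -0.22 to 0.16. The other 8 genes kept their direction in all alternatives in which they were tested. Under quantile normalization FN1 had a log2 fold change of -1.09 (adjusted p = 0.0495 from limma), and centring on the median changed no call of the 10 genes. Fits with the block and another setting were chosen after the data were seen. SPP1 and CILP rest on at most 48.1 and 10.95 normalized counts in any library.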
